A study of Rattus norvegicus with 15 samples.

Results

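The microRNAs (miRNAs) miR-34a and miR-194 are targets of the transcription factor p53, and their levels were followed across every cardiomyocyte sample of a rat heart failure study. They were taken as the probes rno-miR-34a and rno-miR-194 of an nCounter panel, 2 of its 420 rat miRNA probes, and set beside the background of the same lane. The nCounter assay ligates a tag to every miRNA and counts each tagged molecule by the colour code of its probe, without amplification. All samples were total RNA, taken with TRIzol, of adult rat cardiomyocytes of the Sprague Dawley strain, with 3 samples in each of 5 groups.

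The in vitro doxorubicin (DOX) group was healthy cardiomyocytes kept in M199 medium and exposed to this anthracycline drug for 6 h. Its reference was cardiomyocytes given saline vehicle for the same 6 h. The in vivo DOX group was cardiomyocytes of adult rats injected repeatedly with DOX until the heart failed. The MI group was cardiomyocytes of rats whose left coronary artery was ligated, with failure after 4 weeks. The reference of both heart failure models was cardiomyocytes of healthy age-matched controls. Cells of every group were plated on laminin for 1 h and only attached, viable cells were extracted, so cells already lost to apoptosis are not represented in any group. The labels give no dose and leave unstated whether replicates were separate rats or separate dishes. P-values therefore measure only the spread between these samples, which may be technical.

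DOX damages DNA, and DNA damage stabilises p53. Active p53 binds near the miR-34a gene and raises its transcription in many mammalian cells, and miR-34a in turn lowers the deacetylase SIRT1, the anti-apoptotic BCL2 and cell-cycle regulators. In the mouse heart miR-34a is known for its rise with age and after infarction and for targeting Pnuts. miR-194 is made from 2 loci, each beside a gene of the miR-192 and miR-215 family, and in human cells p53 raises these clusters and they hold down the p53 inhibitor MDM2. The data bear on the question whether DOX was accompanied by a higher level of these miRNAs in cardiomyocytes.

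The mature sequences are printed, with the seed (bases 2 to 8) in capitals, because the close relatives of the pair share a seed or a locus with it and were measured on the same panel. They are the 5′-arm miRNAs of RefSeq (rat build GRCr8). The panel names carry no arm, so that the probes read the 5′ arm was taken from the names and not tested.
miR-34a: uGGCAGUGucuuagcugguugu
miR-34b: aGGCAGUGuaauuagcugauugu
miR-34c: aGGCAGUGuaguuagcugauugc
miR-449a: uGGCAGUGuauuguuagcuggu
miR-194: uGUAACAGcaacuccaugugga
miR-192: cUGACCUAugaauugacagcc
miR-215: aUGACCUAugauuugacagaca

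The seed GGCAGUG of miR-34a occurred in 5 of the 693 mature rat miRNAs of the RefSeq table, the 4 printed above and miR-449c. In an end-to-end alignment that allows gaps, miR-34a shared 19 of its 22 bases with miR-34b, 18 with miR-34c and 17 with miR-449a. The seed GUAACAG of miR-194 belonged to 1 mature miRNA made from 2 loci, and miR-194 shared 8 bases with miR-34a in such an alignment. The Mir34a hairpin lies at chr5:165815952-165816053 on the plus strand, within the long non-coding RNA LOC103692514. Mir194-1 lies at chr13:99382716-99382798 on the plus strand within the protein-coding gene Iars2, 191 bases from Mir215. Mir194-2 lies at chr1:212994024-212994108 on the plus strand, 100 bases from Mir192. Mature miR-194 of the 2 loci is the same sequence, so a count cannot be given to either locus.

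Both miRNAs were rare in these cells. The lanes held 36977 to 137746 miRNA counts, and miR-34a made up 0.0170% to 0.0575% of them. Lane background was the mean plus 2 SD of the 8 negative-control probes, and it ranged from 11.8 to 47.2 counts. miR-34a lay above it in 6 of 15 lanes and miR-194 in 4 of 15. Exact Poisson intervals printed for single counts, and shown as bars in the plot of raw counts, cover counting error only.

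miR-34a was counted 17, 18 and 41 times in the in vitro DOX samples, against 68, 54 and 68 times in the vehicle samples. The background of these lanes was 43.4, 41.7 and 44.8 counts with in vitro DOX, against 47.2, 42.5 and 33.3 counts with vehicle. miR-34a thus passed background in 0 of 3 in vitro DOX lanes and in 3 of 3 vehicle lanes. The in vivo DOX samples had 74, 22 and 13 counts of miR-34a, against 21, 36 and 28 counts in age-matched controls. The in vivo DOX lanes had backgrounds of 43.9, 37.5 and 41.1 counts, against 19.6, 36.2 and 29.6 counts in the control lanes. Only sample 1 of each of these groups lay above its background. The MI samples had 12, 21 and 13 counts, beside backgrounds of 11.8, 21.1 and 17.0 counts, and only sample 1 lay above.

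miR-194 was counted 24, 30 and 23 times with in vitro DOX, against 43, 45 and 30 times with vehicle. It passed background in 0 of 3 in vitro DOX lanes and in 1 of 3 vehicle lanes, vehicle sample 2. The in vivo DOX samples had 48, 17 and 27 counts of miR-194 and the MI samples 12, 26 and 11, against 10, 27 and 28 in age-matched controls. In vivo DOX sample 1 and MI samples 1 and 2 lay above background, and none of the age-matched controls did. A vehicle count of 45 had an exact 95% Poisson interval of 32.8 to 60.2, which holds the lane's own background of 42.5.

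**Figure D1:**
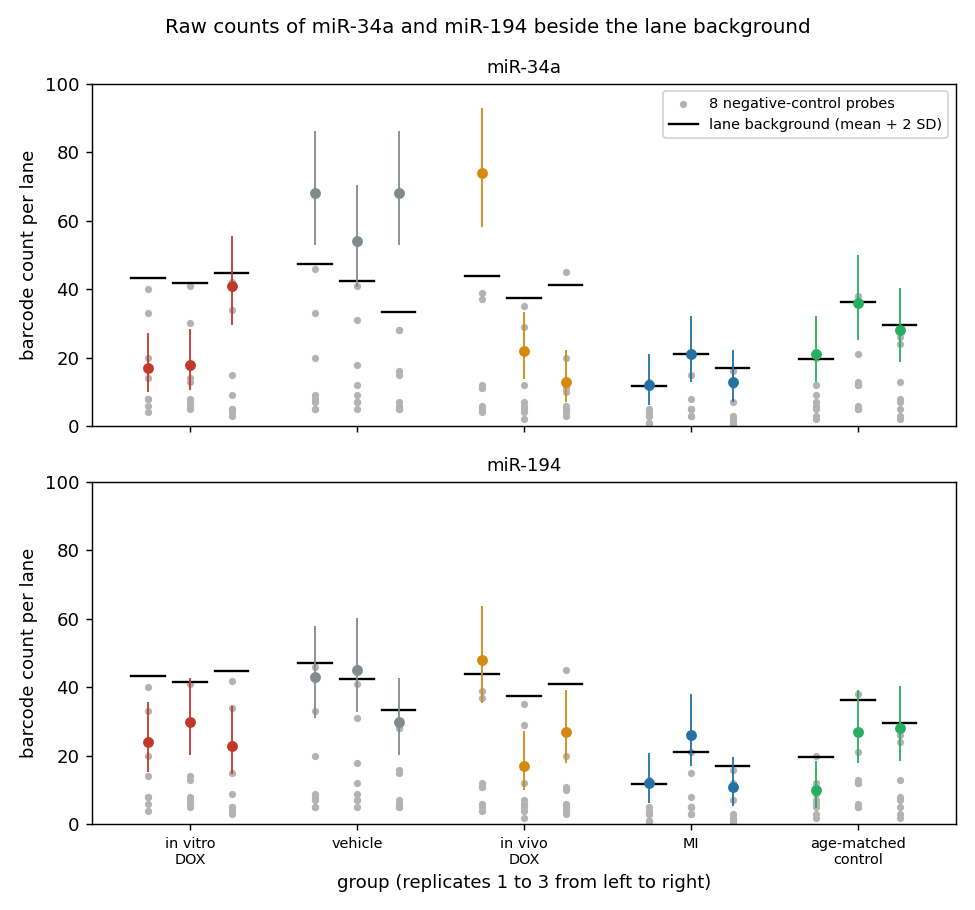
Raw barcode counts (y axis) of miR-34a and miR-194 in each of the 15 lanes, with exact 95% Poisson intervals; grey dots are the 8 negative-control probes of the lane and black lines the lane background. miR-34a lies above the line in 6 lanes, among them the 3 vehicle lanes, and miR-194 in 4 lanes.

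Levels are given on a pair of scales. CPM, the usual depth-scaled unit, are counts over the lane's miRNA total after scaling by the trimmed mean of M-values (TMM), and CPM above the negative controls are the same after subtracting the mean negative-control count of the lane. The 8 negative controls of a lane averaged 146.9 to 197 CPM with in vitro DOX, against 109 to 119 CPM with vehicle. They averaged 125 to 216 CPM with in vivo DOX and 92.2 to 107 CPM with MI, against 184 to 222 CPM in age-matched controls. A CPM value near these numbers is therefore no sign of the miRNA.

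miR-34a averaged 277 ± 118 CPM with in vitro DOX and 469 ± 72.9 CPM with vehicle (SD, n = 3 each). It averaged 370.2 ± 198 CPM with in vivo DOX, 271 ± 13.7 CPM with MI and 539 ± 61.6 CPM in age-matched controls (SD, n = 3 each). Every group given DOX or infarcted thus averaged below its reference. From high to low the order was age-matched control, vehicle, in vivo DOX, in vitro DOX and MI, and each neighbouring pair in that order overlapped in its range. miR-194 averaged 294 ± 78.5 CPM with in vitro DOX and 289 ± 46.2 CPM with vehicle (SD, n = 3 each). It averaged 355 ± 111 CPM with in vivo DOX, 279 ± 58.3 CPM with MI and 391 ± 102 CPM in age-matched controls (SD, n = 3 each). All neighbours in the order of miR-194 levels overlapped as well, and no 2 of the 5 group means of miR-194 were further apart than 279 and 391 CPM.

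**Figure D2:**
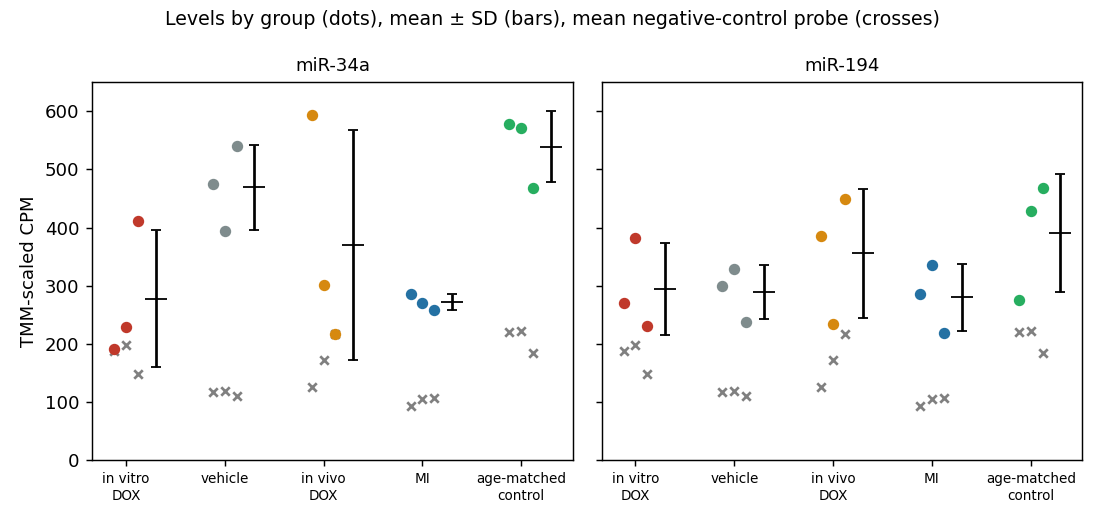
TMM-scaled CPM (y axis) of miR-34a and miR-194 in the 5 groups; dots are samples, bars the mean ± SD of 3 samples, and crosses the mean negative-control probe of each lane. In vitro DOX samples 1 and 2 and in vivo DOX sample 3 have miR-34a at or close to the cross, while the vehicle samples lie between 394 and 539.7 CPM.

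The first comparison asked whether 6 h of DOX in culture changed the pair. miR-34a had 191, 229 and 412 CPM with in vitro DOX, against 475, 394 and 539.7 CPM with vehicle. The groups overlapped, because in vitro DOX sample 3 lay above vehicle sample 2, while 46.8% of the miRNAs tested had groups that did not overlap in CPM. Above the negative controls it had 4.21, 31.8 and 265 CPM with in vitro DOX, against 359, 276 and 431 CPM with vehicle. On that scale the groups did not overlap, as was so for 44% of the 109 miRNAs, and in vitro DOX samples 1 and 2 held almost no miR-34a signal. The log2 difference was -0.74 (SE 0.33, 95% interval -1.41 to -0.07). It includes the background counts of both groups and is no measure of the fold in miR-34a itself, which lay above background in 0 of the 3 in vitro DOX lanes. Above the negative controls miR-34a averaged 100.3 ± 143 CPM with in vitro DOX and 355 ± 77.6 CPM with vehicle (SD, n = 3 each). It did not pass the threshold of 0.05 in edgeR's quasi-likelihood test (adjusted p = 0.0791 by Benjamini-Hochberg over 109 miRNAs). In this comparison 30.3% of the 109 miRNAs tested passed, 16.5% as higher and 13.8% as lower, and 0 of the pair did.

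miR-194 had 269, 382 and 231 CPM with in vitro DOX, against 300.1, 328 and 238 CPM with vehicle. The groups overlapped over nearly their whole range. The log2 difference was 0.01 (SE 0.31, 95% interval -0.62 to 0.64, edgeR adjusted p = 0.972). This value includes the background counts of both groups, and miR-194 lay above background in 0 of 3 in vitro DOX lanes and 1 of 3 vehicle lanes. The interval is therefore no measure of the fold in miR-194 itself. With the background subtracted the log2 difference was -0.66 (edgeR adjusted p = 0.462). Above the negative controls miR-194 averaged 117 ± 58.5 CPM with in vitro DOX and 174 ± 41.3 CPM with vehicle (SD, n = 3 each).

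The in vitro miR-34a difference rested on which samples were used. In vitro DOX sample 3 had the highest miR-34a of its group, and without it the log2 difference was -1.16 and passed (edgeR adjusted p = 0.00446). That sample also stood apart over the whole panel: chi-square over its degrees of freedom was 36.0 to 41.1 against the other samples of its group, and 1.85 between samples 1 and 2. The value was negative under every other scaling and count model tried, and DESeq2 called it (-0.93, adjusted p = 0.0233). The 3 in vitro DOX lanes were read at another stage position of the counter and in another run than the 12 other lanes, so DOX in culture and the run cannot be told apart. Between these groups the 13 control probes that should not differ in number (negative, spike-in) moved by a median log2 CPM of 0.47, the opposite sign to miR-34a. In the heart failure models these control probes had the sign of miR-34a, with -0.47 for in vivo DOX and -1.02 for MI, relative to age-matched controls. Their part in the miR-34a values was not tested. The 5 spike-in probes averaged 3.6 to 11 counts per lane, beside 3.88 to 16.6 counts for the negative controls. Spike-in scaling, used below, therefore rests on counts at background level.

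The second comparison asked the same of hearts made to fail by repeated DOX. miR-34a had 593, 302 and 216 CPM with in vivo DOX, against 578, 572 and 468 CPM in age-matched controls. The groups overlapped because in vivo DOX sample 1 was the highest of all 6, while samples 2 and 3 lay below every control, and 33.9% of the miRNAs tested had groups without overlap. Above the negative controls the values were 468, 130.3 and 0 CPM with in vivo DOX, against 358, 349.5 and 284 CPM in controls. In vivo DOX sample 3 had exactly the mean count of its negative controls. The log2 difference was -0.47 (SE 0.34, 95% interval -1.16 to 0.23, edgeR adjusted p = 0.335). Only 3.67% of the 109 miRNAs passed in this comparison, 2.75% as higher and 0.917% as lower, and 0 of the pair did.

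Without in vivo DOX sample 1 the log2 difference of miR-34a was -1.03 and passed (edgeR adjusted p = 0.0360). Without in vivo DOX sample 3 it was -0.22 (adjusted p = 0.631), and with all samples it was 0.10 under positive-control scaling and 0.04 under spike-in scaling. Chi-square over its degrees of freedom was 17.8 to 30.9 between in vivo DOX sample 1 and the others of its group, and 4.66 between samples 2 and 3. miR-194 had 385, 233 and 449 CPM with in vivo DOX, against 275, 429 and 468 CPM in age-matched controls. The groups overlapped, with 1 low sample on each side. The log2 difference was -0.17 (SE 0.32, 95% interval -0.84 to 0.49, edgeR adjusted p = 0.768). Above the negative controls miR-194 averaged 185 ± 107 CPM with in vivo DOX and 182 ± 117 CPM in controls (SD, n = 3 each).

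Neither DOX model showed a higher miR-34a, and the models did not differ from each other beyond their error. The in vivo effect minus the in vitro effect was 0.27 on the log2 scale for miR-34a (SE 0.47, 95% interval -0.69 to 1.24, edgeR adjusted p = 0.891) and -0.18 for miR-194 (SE 0.45, adjusted p = 0.933). In this test of the difference 0.917% of miRNAs passed, which was 1 of 109, and 0 of the pair did. Over both models together, a comparison added after seeing the data, miR-34a was lower by a mean log2 difference of -0.60 (SE 0.24, 95% interval -1.09 to -0.12). This passed (edgeR adjusted p = 0.0356), as did 48.6% of the 109 miRNAs tested, with 28.4% of the 109 higher and 20.2% of the 109 lower. The upper end of that interval lies below 0, but the comparison was chosen with the values known and its counts include the background. It therefore does not exclude a mean rise of miR-34a itself. The mean for miR-194 was -0.08 (SE 0.22, 95% interval -0.54 to 0.38, adjusted p = 0.793).

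The miR-34a call for both models was fragile. It was lost without any 1 of 7 of the 12 samples: in vitro DOX 1 and 2, vehicle 1 and 3, in vivo DOX 2 and 3, and age-matched control 2, where the log2 values were -0.60 to -0.48 and the adjusted p 0.0613 to 0.114. An exact two-sided permutation test of the mean log2 CPM difference, over the 400 arrangements within the models, gave -0.75 with p = 0.045 for miR-34a and -0.07 with p = 0.75 for miR-194. The smallest p this test allows is 0.005. With each lane scaled by its positive-control probes, p for miR-34a in the permutation test was 0.135, and scaled by the 4 housekeeping mRNA probes it was 0.01. For miR-194 the permutation p was 0.65 under positive-control scaling, and under housekeeping scaling the difference was -0.60 with p = 0.04. Under housekeeping scaling the median mean DOX effect of the 109 miRNAs was -0.37 in the edgeR fit, with 1 called higher and 34 lower. Relative to that median miR-34a lay at -0.71 and miR-194 at -0.20. The permutation p-values under that scaling include this shift.

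**Figure D3:**
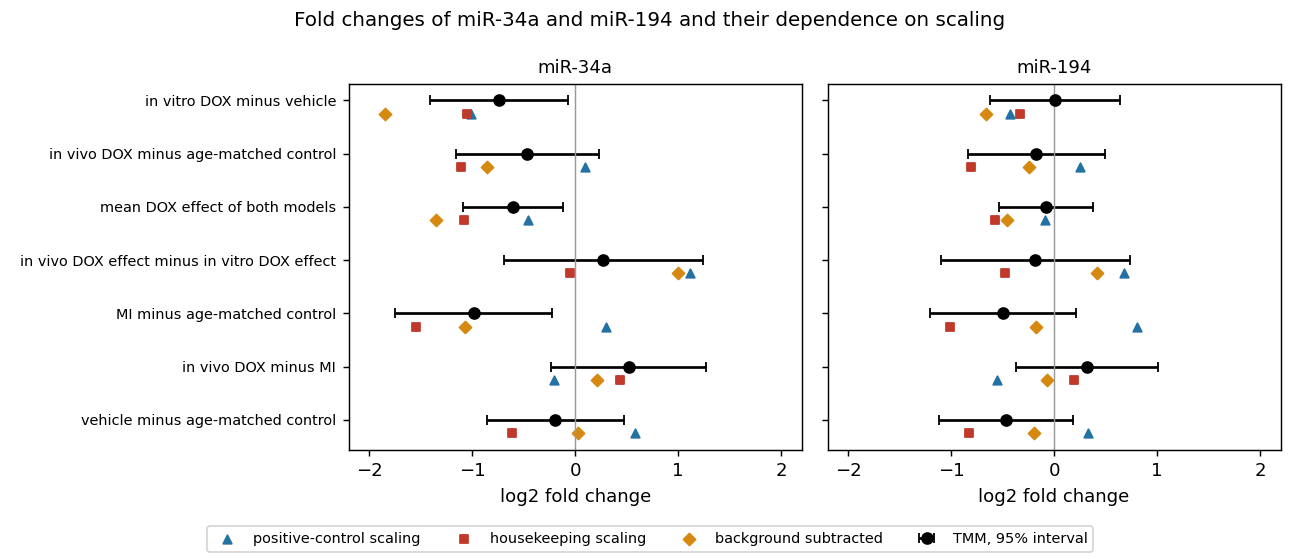
Log2 fold changes (x axis) of miR-34a and miR-194 in each comparison (rows), with 95% intervals under TMM scaling; coloured marks give the value under positive-control scaling, housekeeping scaling and background subtraction. The miR-34a interval lies wholly below 0 for in vitro DOX, for the mean DOX effect and for MI, and the positive-control value of MI lies on the other side of 0.

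The third comparison placed the pair in failure without the drug. miR-34a had 285, 270.3 and 258 CPM with MI, against 578, 572 and 468 CPM in age-matched controls. The groups did not overlap, as was so for 57.8% of the miRNAs tested. miR-34a fell with MI by 0.98 on the log2 scale (SE 0.37, 95% interval -1.75 to -0.22, edgeR adjusted p = 0.0395) on counts that include the background. Of the 109 miRNAs tested in this comparison 37.6% passed, 15.6% of the 109 as higher and 22% of the 109 as lower. Above the negative controls miR-34a averaged 170.1 ± 21.3 CPM with MI and 330.4 ± 40.2 CPM in controls (SD, n = 3 each). The lane background moved the same way, with 272 to 337 CPM in MI lanes against 495 to 575 CPM in control lanes.

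The call for MI was lost without any 1 of the 6 samples (log2 -1.08 to -0.91, edgeR adjusted p 0.0620 to 0.118), and scaled by positive controls the value was 0.30 (adjusted p = 0.684). miR-194 had 285, 335 and 218 CPM with MI, against 275, 429 and 468 CPM in age-matched controls. The log2 difference was -0.49 (SE 0.35, 95% interval -1.21 to 0.22, edgeR adjusted p = 0.301), and the groups overlapped. The in vivo DOX and MI comparisons share their control samples. Set directly against MI, in vivo DOX differed by 0.52 for miR-34a (SE 0.37, adjusted p = 0.281) and by 0.32 for miR-194 (SE 0.34, adjusted p = 0.475), in a comparison where 32.1% of miRNAs passed (18.3% higher, 13.8% lower) and 38.5% had groups without overlap. Without in vivo DOX sample 1 the miR-34a value was -0.05.

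The 2 references also differ, since vehicle cells spent 6 h in culture with saline and control cells did not. Vehicle minus age-matched control was -0.19 for miR-34a (SE 0.33, edgeR adjusted p = 0.704) and -0.47 for miR-194 (SE 0.32, adjusted p = 0.314). In that comparison 18.3% of miRNAs passed, 8.26% as higher and 10.1% as lower, and 67% had groups without overlap in CPM. Of the pair 0 passed, and both overlapped.

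How the lanes were scaled moved all miRNAs together, so the pair is also given relative to that shift. The median log2 difference of the 109 miRNAs with MI was -0.03 under TMM scaling, 1.26 under positive-control scaling, 0.91 under spike-in scaling and -0.63 under housekeeping scaling. Relative to the median of the same scaling, miR-34a lay at -0.98 to -0.92 with MI in each of 5 scalings. Relative to that median it lay at -1.01 to -0.94 with in vitro DOX and at -0.47 to -0.22 with in vivo DOX. miR-194 lay at -0.35 to -0.25 with in vitro DOX and at -0.18 to -0.07 with in vivo DOX relative to the median. Subtracting the median takes out most of the scaling by construction, so the nearness of these values across scalings is no support for them. With MI the miR-34a value itself ran from -1.55 to 0.30 over the 12 alternatives. The split of calls moved too: with in vitro DOX 18 were higher and 15 lower under TMM, 9 and 22 under relative log expression, 0 and 1 under positive controls, 0 and 12 under housekeeping probes, and 0 and 23 under spike-ins. With in vivo DOX 3 were higher and 1 lower under TMM, 5 and 0 under positive controls, and 0 and 29 under housekeeping probes. With MI 17 were higher and 24 lower under TMM, 53 and 1 under positive controls, 43 and 0 under spike-ins, and 5 and 32 under housekeeping probes.

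A ratio of the pair within a lane needs no scaling. The count of miR-34a over that of miR-194 was 0.708, 0.6 and 1.78 with in vitro DOX, against 1.58, 1.2 and 2.27 with vehicle. It was 1.54, 1.29 and 0.481 with in vivo DOX and 1, 0.808 and 1.18 with MI, against 2.1, 1.33 and 1 in age-matched controls. The groups overlapped in all 3 comparisons. The ratio compares counts of different probes and gives no relative level of the miRNAs.

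The seed and locus relatives gave no further sign of the family above lane background. miR-34b, miR-34c, miR-449a, miR-192 and miR-215 lay above background in 0 of 15 lanes, so none was tested in the fit of 109. miR-34c, which p53 induces together with miR-34b from a shared transcript in mouse and human cells, had 29, 29 and 17 counts with in vitro DOX, against 31, 28 and 17 with vehicle. It had 26, 18 and 25 counts with in vivo DOX and 5, 11 and 3 with MI, against 13, 21 and 11 in age-matched controls. miR-34b averaged 158 ± 41.0 CPM with in vitro DOX and 94.3 ± 39.0 CPM with vehicle (SD, n = 3 each), beside negative controls of similar size. miR-449a, best known from multiciliated cells, had 12, 9 and 4 counts with in vitro DOX, against 6, 7 and 1 with vehicle.

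miR-192, the neighbour of miR-194 on chromosome 1, had 10, 10 and 11 counts with in vitro DOX, against 26, 34 and 23 with vehicle. The groups did not overlap, as was so for 37.1% of all 420 probes in CPM, yet every count lay below its lane background and those with DOX lay below the mean of the negative controls. In an edgeR fit over all 420 probes its log2 difference was -1.36 (SE 0.32, adjusted p = 0.00928). In the same fit miR-194 stood at -0.55 (adjusted p = 0.429) and miR-34a at -1.26 (adjusted p = 0.0310). miR-215, the neighbour of the other miR-194 locus, had 14, 7 and 7 counts with in vitro DOX, against 11, 8 and 4 with vehicle, and no direction can be read at that level. With in vivo DOX miR-192 had 20, 14 and 11 counts, against 2, 14 and 16 in age-matched controls (log2 0.09, adjusted p = 0.941).

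The authors' deposited table for DOX in culture gives quantile-normalized means of 32.2 with DOX and 61.6 with vehicle for miR-34a, with a p-value of 0.0457. For in vivo DOX the authors' deposited table gives miR-34a 43.3, against 56.8 in age-matched controls, with a p-value of 0.445. For MI the authors' deposited table gives 39.0, against 56.8 in controls, with a p-value of 0.0177. For miR-194 in culture the authors' deposited table gives 35.1 with DOX and 40.7 with vehicle, with a p-value of 0.256. For miR-192 in culture the authors' deposited table gives 13.6 with DOX and 30.9 with vehicle, with a p-value of 0.00317. These differences have the sign of the values from the counts, except for miR-194 in culture, which stood at 0.01 on the log2 scale in the counts.

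Of the 13 miRNAs listed as raised by p53, mostly from human and mouse cells, 11 were on the panel and 5 were tested. With in vitro DOX 0 of the 5 passed, and with in vivo DOX 0 of the 5 passed, where 30.3% and 3.67% of all miRNAs passed. Their median log2 difference was 0.01 with in vitro DOX, where the median of all miRNAs was 0.27, and -0.20 with in vivo DOX, where it was 0.00. Besides the pair these were miR-107, which lies in an intron of Pank1, a p53 target, with 0.59 in vitro (adjusted p = 0.0692) and -0.20 in vivo (adjusted p = 0.641), and miR-22. miR-22 had -0.40 in vitro (adjusted p = 0.241) and -0.26 in vivo (adjusted p = 0.547). The last was miR-145, which lowers MYC in human cells, with 0.71 in vitro (adjusted p = 0.0586) and 0.53 in vivo (adjusted p = 0.225). Over both models miR-145 rose by 0.62 (SE 0.20, edgeR adjusted p = 0.0145), the opposite direction to miR-34a. In that comparison, added after seeing the data, 28.4% of the 109 miRNAs were called higher and 20.2% lower. With MI 1 of the 5 passed, miR-34a, as lower, where 37.6% of the 109 miRNAs passed and 22% of the 109 were lower.

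Among 3 miRNAs whose maturation p53 aids in human cells, miR-143 fell with in vitro DOX by 1.34 on the log2 scale (SE 0.34, edgeR adjusted p = 0.00504). miR-16 and miR-145 did not pass, where 30.3% of the 109 did, and with in vivo DOX 0 of 3 passed, where 3.67% of the 109 did. miR-143 and miR-145 are made from 1 primary transcript, and their log2 differences in culture had opposite signs. With MI miR-16 rose by 0.68 (adjusted p = 0.0395), 1 of the 3, where 15.6% of the 109 miRNAs rose. miR-143 and miR-145 are also the smooth muscle markers of the lists, whose summed level was 47501 to 98692 CPM with in vitro DOX, against 46348 to 50709 CPM with vehicle.

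Of 6 listed miRNAs reported to lower p53 itself in human cells, 4 were tested. With in vitro DOX miR-125a-5p, which belongs to the same family as miR-125b, rose by 1.09 (SE 0.27, edgeR adjusted p = 0.00504). miR-30d, abundant in cardiomyocytes, fell by 0.84 (SE 0.30, adjusted p = 0.0326). Thus 1 of the 4 rose and 1 fell, where 16.5% of the 109 miRNAs rose and 13.8% fell. With in vivo DOX 0 of the 4 passed, where 3.67% of the 109 did. Of 9 listed as raising p53 through its inhibitors, 6 were tested and 4 fell with in vitro DOX, among them the miR-29 family, where 13.8% of the 109 miRNAs fell. miR-29a fell by 1.44 (SE 0.32, adjusted p = 0.00327), miR-29b by 2.82 (SE 0.76, adjusted p = 0.0153) and miR-29c by 2.09 (SE 0.50, adjusted p = 0.00724). These miRNAs target collagen mRNAs in the heart, and in human cells p85 alpha and CDC42. The fourth was miR-143. Under positive-control scaling 0 of the 109 miRNAs were called higher with in vitro DOX and 1 lower, so these calls depended on the scaling. With in vivo DOX 0 of these 6 passed, where 3.67% of the 109 did, and miR-29a to miR-29c had log2 differences of -0.53, -1.83 and -1.49 (adjusted p 0.0847 to 0.267).

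Of the 6 miRNAs of the miR-17-92 cluster, which p53 represses under hypoxia in human cells, 3 were tested and 0 passed in any of the 3 comparisons with a control, where 30.3%, 3.67% and 37.6% of the 109 did. With MI 1 of 4 tested miRNAs that lower p53 rose (miR-25, 0.74, edgeR adjusted p = 0.0395) and 1 fell (miR-30d, -0.92, adjusted p = 0.0201), and 0 of the 6 that raise it passed, where 15.6% of the 109 rose and 22% fell. Under spike-in scaling 0 of the 109 miRNAs were called lower with MI, so the miR-30d call depended on the scaling. The lists overlap: miR-145, miR-143 and miR-194 stand in more than 1.

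**Figure D4:**
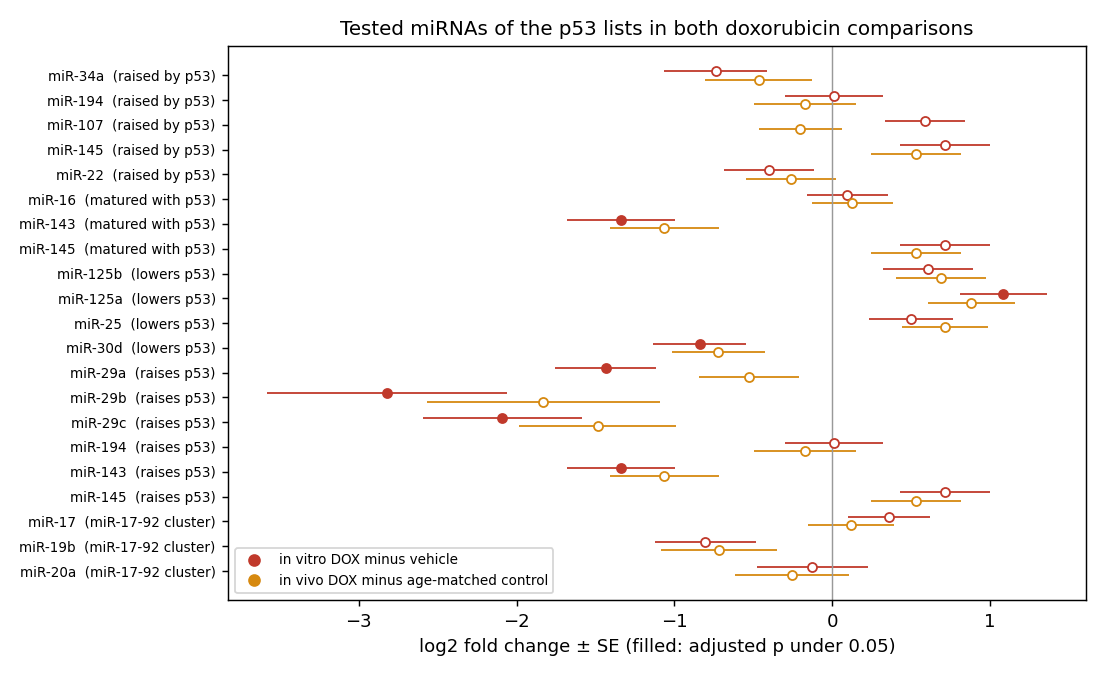
Log2 fold changes ± SE (x axis) of the tested miRNAs of the p53 lists (rows) with in vitro DOX minus vehicle (red) and in vivo DOX minus age-matched control (orange); filled points have an edgeR adjusted p under 0.05. None of the miRNAs listed as raised by p53 is filled, the filled points lie among the other lists, and no orange point is filled.

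All 5 cardiomyocyte miRNAs of the marker list (miR-1, miR-133a, miR-133b, miR-208 and miR-499) lay above background in every lane, and their summed level was 221999 to 345509 CPM with in vitro DOX, against 281067 to 295120 CPM with vehicle. The sum was 252684 to 352363 CPM with in vivo DOX and 220316 to 312479 CPM with MI, against 352362 to 354779 CPM in age-matched controls. Most of each sum was miR-1, which hides the other members. The median log2 difference of the 5 was -0.70 with in vitro DOX, -0.71 with in vivo DOX and -0.81 with MI, where the median of all miRNAs was 0.27, 0.00 and -0.03. miR-133b fell in all 3 comparisons, by 1.69 with in vitro DOX (edgeR adjusted p = 0.000618), by 1.33 with in vivo DOX (adjusted p = 0.0229) and by 1.32 with MI (adjusted p = 0.00211). With MI miR-208 fell too, by 1.01 (adjusted p = 0.0137), and no other of the 5 passed in these comparisons. Of all 109 miRNAs 13.8% fell with in vitro DOX, 0.917% with in vivo DOX and 22% with MI. These calls are under TMM scaling. With in vivo DOX 0 miRNAs were called lower under positive-control or spike-in scaling, and with MI 0 under spike-in scaling. The calls for in vivo DOX and MI thus depended on the scaling. The endothelial marker miR-126 had 46623 to 131043 CPM with MI, against 20104 to 22102 CPM in age-matched controls, and the 4 fibroblast markers summed to 9551 to 13398 CPM with MI, against 4373 to 4734 CPM in controls. In bulk samples fewer cells of a type and less RNA per cell cannot be told apart, and the part of these shifts in the miR-34a value of MI was not tested. With DOX, miR-126 had 70925 to 92753 CPM in vitro, against 66721 to 70808 CPM with vehicle, and 22364 to 39485 CPM in vivo, against 20104 to 22102 CPM in controls. The 5 leukocyte markers on the panel summed to 8058 to 40180 CPM with in vitro DOX, against 9968 to 10948 CPM with vehicle. They summed to 13741 to 24383 CPM with in vivo DOX, against 5656 to 5868 CPM in controls. Most of each sum was miR-150, with 4682 to 32534 CPM with in vitro DOX, against 6206 to 6831 CPM with vehicle. With in vivo DOX miR-150 had 11132 to 21668 CPM, against 3829 to 3979 CPM in controls. Only miR-150 and miR-146a lay above background in all lanes. miR-142-3p and miR-142-5p lay above it in 1 lane each and miR-223 in 0 lanes, so the sums do not describe these members. The fibroblast sum was 4458 to 6410 CPM with in vitro DOX, against 6547 to 7210 CPM with vehicle, and 2758 to 4767 CPM with in vivo DOX, against 4373 to 4734 CPM in controls. That sum hides members that moved in opposite directions. miR-199a-3p had 2110 to 2818 CPM with in vitro DOX, against 1466 to 1524 CPM with vehicle. miR-21 had 1681 to 3426 CPM, against 4270 to 4878 CPM. With in vivo DOX miR-199a-3p had 781 to 1289 CPM, against 518 to 635 CPM in controls. miR-21 had 1454 to 3445 CPM, against 3465 to 3695 CPM. Of the 3 fibroblast markers tested, 1 had a positive log2 difference in each DOX comparison. The part of these shifts in the miR-34a values of the DOX groups was not tested. The 2 erythroid and 8 epithelial and liver markers had 0 probes above background in all lanes of any group, and miR-192 and miR-215 belong to the epithelial and liver list.

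Of the tested miRNAs those most like miR-34a by Pearson's r of log2 CPM (n = 15 samples) were miR-499 (0.89), which lies within the slow myosin gene Myh7b, miR-30d (0.87), miR-345-5p (0.86), miR-133a (0.85) and miR-22 (0.85). Without the 3 samples that stood apart from their groups (sample 3 with in vitro DOX, sample 1 with in vivo DOX and sample 3 with MI) the r for these 5 was 0.85 to 0.92 (n = 12). These values are descriptions, since the points share lanes, scaling and 5 group means. miR-499 had 10048, 8751 and 43965 CPM with in vitro DOX, against 50795, 51898 and 50872 CPM with vehicle. It had 51535, 16059 and 13525 CPM with in vivo DOX, against 46561, 45770 and 45742 CPM in age-matched controls. The samples with the highest miR-34a of the DOX groups, in vitro DOX 3 and in vivo DOX 1, were thus also those with the highest miR-499.

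miR-194 had no neighbour of that kind. The most alike were miR-466c (r = 0.64), miR-501 (0.60), miR-423 (0.59), miR-421 (0.58) and miR-3571 (0.57), over 15 samples. Of these, miR-501 lay above background in 5 lanes, miR-421 in 7 and miR-3571 in 4. miR-194 correlated with the mean negative-control probe at r = 0.46 and miR-34a at -0.03, and the pair correlated with each other at r = 0.09 (n = 15 samples each, with lane and depth shared).

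**Figure D5:**
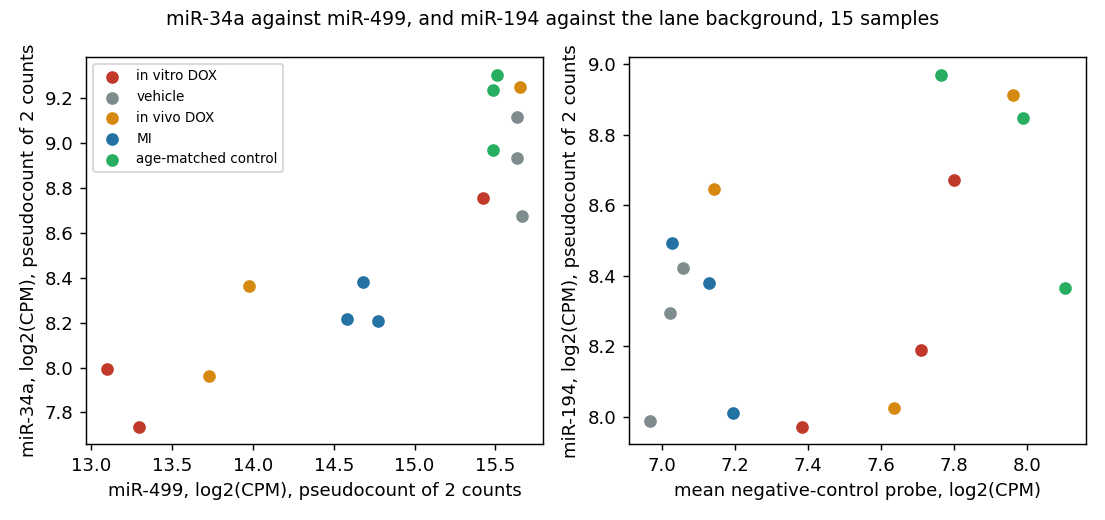
Left, log2 CPM of miR-34a (y axis) against miR-499 (x axis), and right, log2 CPM of miR-194 (y axis) against the mean negative-control probe (x axis), in 15 samples coloured by group. In the left plot 1 in vitro DOX and 1 in vivo DOX sample lie with the vehicle and age-matched control samples at the upper right, and the right plot shows a loose spread (r = 0.46).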

How the data were processed

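The authors deposited whole barcode counts per probe for each lane, on a sheet whose header block is not whole. A corrected sheet of deposited expected counts, in which 24 probes differ, and the deposited sum-normalized signal served as alternatives. The authors' comparison tables hold signal (group means after quantile normalization), a p-value and a score (t statistic), per the file headers. Their software is not given in the labels or files read here. Further sheets were not used.

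Here the uncorrected counts, rounded as edgeR requires, were fitted with edgeR 4.0.16 (R 4.3.3; robust quasi-likelihood F test, TMM scaling, 1 mean per group, all 15 samples in 1 fit), with Benjamini-Hochberg adjustment within a comparison. Testing was limited to the 109 miRNAs above lane background (mean plus 2 SD of 8 negative controls) in 3 or more lanes, 58 of them above in all 15. SE is the log2 difference over the root of F. Alternatives used DESeq2 1.42.0, limma 3.58.1 and other scalings. Levels for correlations used a pseudocount of 2 counts. The fit was tested on simulated counts. The main fit did not pair samples by replicate number, and the labels state no pairing. Control probes' shifts used a pseudocount of 0.5.

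The members and all lists were chosen with earlier results of these data known. Named were the pair, the miRNAs of the p53 lists (values for those that passed, and always for the seed and cluster relatives), the 5 miRNAs most like each member and the control probes. Cell markers were given as sums, and some of them also by name. Some list members that did not pass were named too, after their values were seen. Lanes of 36977 to 137746 miRNA counts limit precision for miRNAs of such low counts.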

Additional observations from a re-analysis of the deposited data

How the results depend on the processing

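All values are log2 differences. Spike-in scaling rests on probes at background level (lane means of 3.6 to 11 counts). For in vitro DOX miR-34a stayed negative under all 12 alternatives (-1.85 with the background subtracted to -0.74) and passed under DESeq2 (-0.93), no filter (-1.26), relative log expression (-0.93), spike-in scaling (-1.27) and without the 3 samples that stood apart (-1.16, an alternative chosen after seeing the data); leaving out 1 sample gave -1.16 to -0.53. For in vivo DOX miR-34a turned positive under positive-control (0.097) and spike-in scaling (0.040), passed without those 3 samples (-1.02), and ranged over -1.03 to -0.22 with 1 sample left out. For MI it was no longer past the threshold with the background subtracted (-1.07), with no filter (-0.36), under relative log expression (-0.89) and under spike-in scaling (-0.070), and it turned to 0.30 under positive-control scaling; 1 sample left out gave -1.08 to -0.91. The mean DOX effect on miR-34a no longer passed with the background subtracted (-1.35), with no filter (-0.70), under positive-control (-0.46) or spike-in scaling (-0.61); 1 sample left out gave -0.89 to -0.48. The difference of the DOX effects on miR-34a turned under housekeeping scaling (-0.052; 1 sample left out, -0.30 to 0.71), and in vivo DOX minus MI under positive-control scaling (-0.21) and without the 3 samples (-0.073; 1 sample left out, -0.051 to 0.76). Vehicle minus age-matched control of miR-34a turned with the background subtracted (0.027), DESeq2 (0.027), no filter (0.50), positive controls (0.58), relative log expression (0.027) and spike-ins (0.64). No alternative model fit brought miR-194 past an adjusted p of 0.05 (its permutation p under housekeeping scaling was 0.04), and its sign was not stable. In vitro it was -0.66 with the background subtracted, -0.18 in DESeq2, -0.33 under housekeeping scaling, -0.069 in limma, -0.55 with no filter, -0.11 with only the groups compared, -0.43 under positive controls, -0.17 under relative log expression and -0.52 under spike-ins (1 sample left out, -0.21 to 0.16). Its difference of DOX effects was 0.42, 0.10, 0.64, 0.68, 0.10 and 0.72 with the background subtracted, DESeq2, no filter, positive controls, relative log expression and spike-ins (1 sample left out, -0.35 to 0.038). With no filter, positive controls and spike-ins it was 0.084, 0.25 and 0.19 for in vivo DOX (1 sample left out, -0.40 to 0.043), 0.12, 0.80 and 0.35 for MI, and 0.22, 0.33 and 0.32 for vehicle minus age-matched control. For in vivo DOX minus MI it was -0.037, -0.55 and -0.16 under those 3, and -0.070 with the background subtracted; its mean DOX effect ranged over -0.27 to 0.027 with 1 sample left out. The cause of these changes was not tested. A filter of above background in all lanes removes both miRNAs and gives no value, and DESeq2 gave no adjusted p for miR-34a in vivo. Samples of different groups share replicate numbers, and their deviations correlated at a median of -0.05 (-0.52 to 0.51, 6 of 30 pairs over 0.1). With 3 samples per group these correlations cannot settle whether samples of the same number belong together. The main fit did not pair them. With the replicate number as a block miR-34a was -0.74 in vitro, -0.51 in vivo and -0.98 with MI (edgeR adjusted p 0.0899, 0.315 and 0.0495), miR-194 was 0.01 in vitro, and no call of the pair changed; the count of calls with in vivo DOX was 1 in place of 4. Over all alternatives the count of calls ran from 1 to 83 for in vitro DOX (33 here), 0 to 53 for in vivo DOX (4), 10 to 68 for MI (41), 13 to 72 for in vivo DOX minus MI (35), 4 to 67 for vehicle minus age-matched control (20), 0 to 18 for the difference of the DOX effects (1) and 3 to 84 for the mean DOX effect (53). Depth limits both miRNAs: in 9 of 15 lanes for miR-34a and 11 of 15 for miR-194 the count did not exceed the lane background.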
